A study of Mus musculus with 4 samples.

Results

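The genes described here work in mitosis and cytokinesis. A list of 40 was taken by gene symbol from the annotation of the array, and 39 had a probe set that carried the symbol alone. Ccnb1 was not matched and is not analysed here. Where a gene had several probe sets, the one with the highest mean log2(signal + 1) over the 4 arrays stood for it. All 39 lay above the filter on low values, among 11055 tested genes.

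The cells came from the basal layer of the epidermis at E16.5 and were sorted from mouse embryos by flow cytometry on α6 integrin and YFP; the entry of 1 het sample does not repeat the sort. The 2 samples called cKO were Srf fl/fl, ROSA26 YFP fl/fl and K14-Cre. The 2 samples called het carry the word in their titles, and the series' design text gives their genotype as Srf fl/+ with the same reporter and Cre and names them WT; their own strain label reads only Rosa26. All 4 samples therefore shared the Cre, the reporter and at least 1 floxed Srf allele, and the comparison has no sample without Cre. K14-Cre acts in keratinocytes with an active keratin 14 promoter, and YFP marks cells in which the Cre has recombined the reporter. Titles also carry a number shared across the groups: the first pair is het_1210 with Ko_1210, and the second is het_1261 with KO_1261. The labels do not say what the numbers mark or whether embryos were pooled, so p-values measure the spread between these samples, which may be technical.

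Entry into mitosis is driven by Cdk1 bound to A-type and B-type cyclins, together with the Polo and Aurora kinases. The spindle checkpoint then holds the anaphase-promoting complex back until every kinetochore is attached, after which cyclin B and securin are destroyed and the chromatids separate. The central spindle finally recruits the RhoA activator Ect2, and a ring of actin and myosin divides the cell. In embryonic epidermis the basal layer holds most of the dividing cells, and its transcripts for these proteins accumulate in G2 and M phase. Their promoters are known for 2 elements: CCAAT boxes bound by NF-Y, and the cell cycle genes homology region (CHR), bound by the DREAM complex in resting cells and by B-Myb and FoxM1 complexes in dividing cells.

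These promoter elements were common among the measured genes. RefSeq promoter windows (GRCm38.p6, 250 bases before to 50 after the start) matched 32 of the 39 genes by symbol, in 34 windows because Ect2 and Prc1 have 2 starts each. Both strands were searched. CCAAT was found in 27 of 34 windows (79.4%), against 37.5% of the windows of tested genes and 37.4% of all 32851 windows. The CHR letters TTTGAA were found in 26 windows (76.5%), against 12.1% and 17.9%, and the variant TTTAAA in 7 (20.6%), against 9.04% and 13.2%. CCAAT together with either CHR form was found in 24 windows (70.6%), against 7.53% of the windows of tested genes. At least 2 CCAAT boxes were present in 19 windows. The CArG box, the motif of SRF itself, was found in 1 window (2.94%), that of Kif20b, against 1.29% of the windows of tested genes. The E2F letters GCGGGAA were in 0 of 34 windows, against 8.28%. In Cdca8 a CHR overlapped a CCAAT box and in Ube2c a pair of CCAAT boxes on opposite strands overlapped; no other matches did. A match is a description of the letters only.

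The following stretches hold the 110 bases before the start of genes that recur in the results. Cdk1, Cdc20 and Ube2c had nearly the same signal in cKO and het within both pairs, while Prc1, Kif11, Top2a, Bub1 and Nek2 had their lowest signal in het_1210. Each is read 5′ to 3′ on the gene's strand, and capitals mark CCAAT (or ATTGG on the other strand) and TTTGAA (or TTCAAA).
Cdk1 (chr10:69352913-69353022, minus strand): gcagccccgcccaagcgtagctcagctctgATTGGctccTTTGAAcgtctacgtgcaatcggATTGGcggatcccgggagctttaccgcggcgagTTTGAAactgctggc
Cdc20 (chr4:118437344-118437453, minus strand): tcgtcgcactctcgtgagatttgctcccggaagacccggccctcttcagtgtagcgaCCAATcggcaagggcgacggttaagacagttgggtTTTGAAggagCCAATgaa
Ube2c (chr2:164769819-164769928, plus strand): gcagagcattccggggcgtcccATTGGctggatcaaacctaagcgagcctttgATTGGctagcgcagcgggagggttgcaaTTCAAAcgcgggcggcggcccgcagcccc
Prc1 (chr7:80294366-80294475, plus strand): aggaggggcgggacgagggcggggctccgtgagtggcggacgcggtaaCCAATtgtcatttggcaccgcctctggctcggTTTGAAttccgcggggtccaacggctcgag
Kif11 (chr19:37376272-37376381, plus strand): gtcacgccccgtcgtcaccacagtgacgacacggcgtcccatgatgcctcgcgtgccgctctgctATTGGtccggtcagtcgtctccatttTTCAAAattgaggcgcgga
Top2a (chr11:99024190-99024299, minus strand): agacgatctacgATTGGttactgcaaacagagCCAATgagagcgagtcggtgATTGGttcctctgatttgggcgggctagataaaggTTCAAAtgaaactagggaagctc
Bub1 (chr2:127831860-127831969, minus strand): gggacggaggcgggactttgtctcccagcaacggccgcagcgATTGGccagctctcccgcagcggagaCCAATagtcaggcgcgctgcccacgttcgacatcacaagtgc
Nek2 (chr1:191821363-191821472, plus strand): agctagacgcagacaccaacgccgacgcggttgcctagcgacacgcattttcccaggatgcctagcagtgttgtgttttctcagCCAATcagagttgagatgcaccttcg
Genes of both kinds of expression pattern carried the elements. Within these 110 bases Top2a had 3 CCAAT boxes and 1 CHR, and Cdk1 had 2 of each. In Bub1 and Nek2 neither CHR form was found in the whole window.

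**Figure D1:**
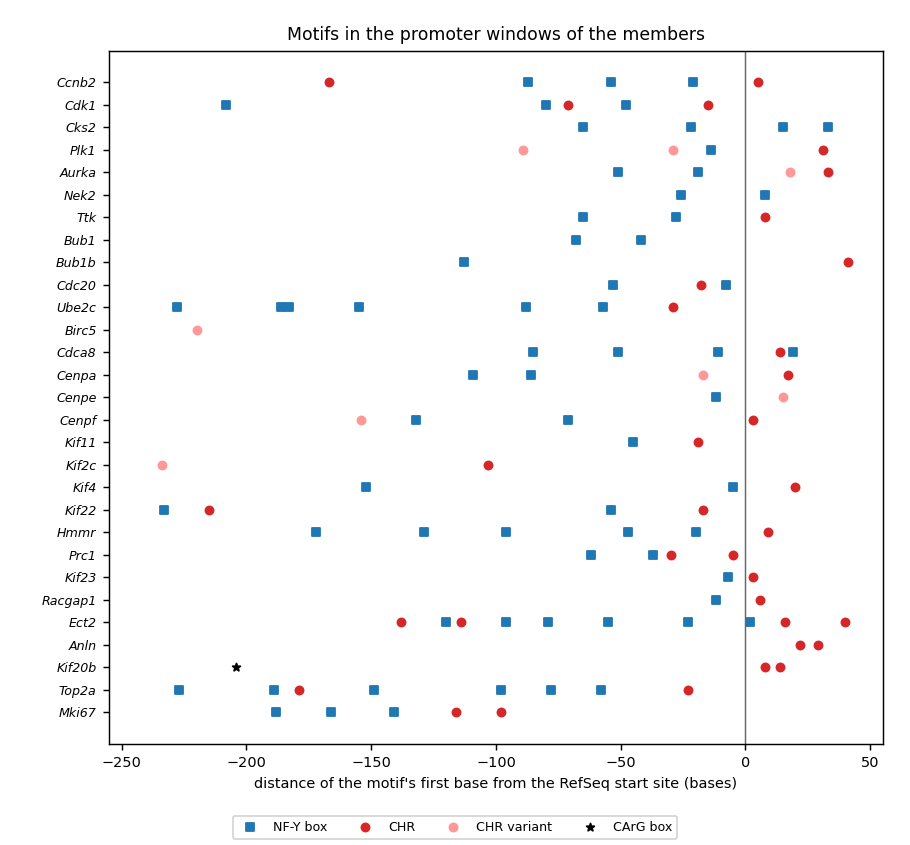
Position of each motif found in the RefSeq promoter windows, in bases from the start site at 0, 1 row per gene; squares are CCAAT boxes (NF-Y), dark and pale circles the CHR and its variant, and the star a CArG box. Of 66 CCAAT boxes, 45 lay within 120 bases before the start, and 30 of 43 CHR forms lay from 50 bases before it to the window's end; rows of Ect2 and Prc1 combine 2 overlapping windows, so that a motif can appear more than once, and genes without a match are left out.

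Facts of the whole series bear on all values below. The Srf transcript was low in both cKO samples: its brighter probe set had a signal of 834 in het_1210 and 1108 in het_1261, against 47.9 in Ko_1210 and 80.4 in KO_1261. Signals had been scaled by the authors to a common trimmed mean, so only changes relative to it can be seen. Spiked-in poly-A control RNAs were brighter in the first pair than in the second, by 2.45-fold among the het arrays and by 2.80-fold among the cKO arrays (12 of 12 probe sets in each). The title number, which holds both groups, was therefore used as a block in a second fit. Whether it marks a technical or a biological difference is not known. All 6 basal keratinocyte markers were above the filter, and their summed signal was 112408 to 150538 in het and 109421 to 145480 in cKO. The 7 suprabasal markers, of which 6 were above the filter, summed to 90587 to 142934 in het and 71911 to 89860 in cKO. The 8 fibroblast markers summed to 39253 to 46478 in het and 34678 to 36063 in cKO, the 7 melanocyte markers to 648 to 1359 and 655 to 722, the 6 immune markers to 844 to 873 and 445 to 672, and the 5 endothelial markers to 348 to 433 and 246 to 289. Het_1210 had the highest sum of the 4 arrays for the basal, suprabasal, fibroblast, melanocyte and endothelial markers, and het_1261 for the immune ones. The basal sum came mostly from Krt5 and Krt14, with 57958 and 59598 in het_1210. Of the 6 basal markers 2, Trp63 and Itga6, instead had their lowest signal in het_1210. Trp63 differed by 0.43 in the first pair and -0.05 in the second, and Itga6 by 0.48 and -0.22. Single markers differed by more than these sums. Of the 8 fibroblast markers 6 were lower in cKO within both pairs, with a median of -0.63 over the 8 (-0.97 and -0.21), and Twist2, Col3a1 and Vim fell in limma with the block. The suprabasal Krt1, Krt10 and Sbsn and the immune Laptm5 fell as well. None of these markers passed without the block, or with the block and no variance trend. The suprabasal Ivl (1.75 in the first pair and -0.78 in the second) and Lor (1.68 and -0.75) went opposite ways. So did the immune Cd74 (0.07 and -0.96) and Csf1r (-0.80 and 0.64) and the fibroblast Dcn (0.13 and -0.02). Krtdap (-0.26 and -0.02) and Cd68 (-0.59 and -0.15) were lower in cKO within both pairs, and the fibroblast Pdgfra was higher in both (0.64 and 0.87). The part of these cells in the values below was not tested. In sorted bulk cells, a change in the share of cells in mitosis and a change in RNA per mitotic cell cannot be told apart.

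No mitosis or cytokinesis gene passed the test of cKO against het. In limma without a block 0 of 39 passed, where 0.0% of all tested genes passed, and 0 of 39 had an unadjusted p under 0.05, against 66 of the 11055. The smallest adjusted p over all tested genes was 0.999955 in limma without a block, and Srf itself did not pass. That fit therefore says little about these 39 genes. With the number as a block again 0 of 39 passed, where 0.253% of tested genes were called higher and 0.615% lower. A count of 0 among 39 is near those shares. The smallest adjusted p among the 39 in limma with the block was 0.162, for Top2a. At an unadjusted p under 0.05 the blocked fit held 6 of them, Nek2, Bub1, Cenpf, Kif23, Anln and Top2a, all higher in cKO, beside 980 of all genes. The mean differences, cKO minus het on the log2(signal + 1) scale, ran from -0.16 for Kif2c to 0.56 for Nek2. The 95% intervals of the fit without a block reached from -1.15 at the lowest (Plk1) to 1.44 at the highest (Cenpe), so a gene that did not pass is not shown to be alike in both genotypes.

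As a group the genes lay slightly above 0, and they did so mainly within the first pair. Their median difference was 0.06, against -0.02 over all tested genes, and 29 of 39 (74.4%) were above 0, where 46.2% of all tested genes were; Pttg1, at 0.00, is counted among the 29. Within the first pair the median was 0.10, against -0.03 over all genes, and within the second 0.00 against -0.02. Over the tested genes with a signal of at least 500 on every array, the medians were 0.009 and 0.005. Both pairs gave a higher value in cKO for 16 genes (41.0%; 24.4% of all) and a lower one for 8 (20.5%; 31.6% of all), and the pairs had opposite signs for 15. Both cKO arrays lay above both het arrays for 7 genes (17.9%; 8.18% of all): Ccnb2, Cks2, Nek2, Bub1, Bub1b, Kif23 and Top2a. Both lay below for 2 genes, Racgap1 and Kif20a (5.13%; 10.9% of all). With each array centred on its median, these counts were 12 above and 0 below, beside 18.1% and 4.0% of all genes, and 36 of 39 differences were above 0; under that centring the median over all genes was 0.10 in place of -0.02. With the mean of all probe sets of a gene, 3 lay above and 2 below, beside 7.63% and 11.2% of all genes. The count above was then near the share over all genes. Of the other tested probe sets of the 9 genes, that of Bub1 alone kept both cKO arrays on the same side of both het arrays.

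The pairs differed in how far the genes spread. Within the second pair all 39 lay within 0.25 of 0, from -0.24 (Kif11) to 0.22 (Kif4), where 71.3% of all tested genes did. Within the first pair 25 of 39 lay within 0.25 of 0, where 48.6% of all tested genes did, and the others reached from 0.34 to 0.95. The limit of 0.25 was chosen after the values were seen. The genes were well above background, with a lowest signal of 509.8 on any array; among the 5762 tested genes with at least 500 on every array, 57.8% lay within 0.25 in the first pair and 86.9% in the second. A first-pair difference over 0.5 was found for 8 genes (20.5%; 9.89% of all), and one under -0.5 for 0 (11.7% of all). In the second pair 0 of 39 were over 0.5 (3.0% of all) and 0 under -0.5 (6.78% of all).

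**Figure D2:**
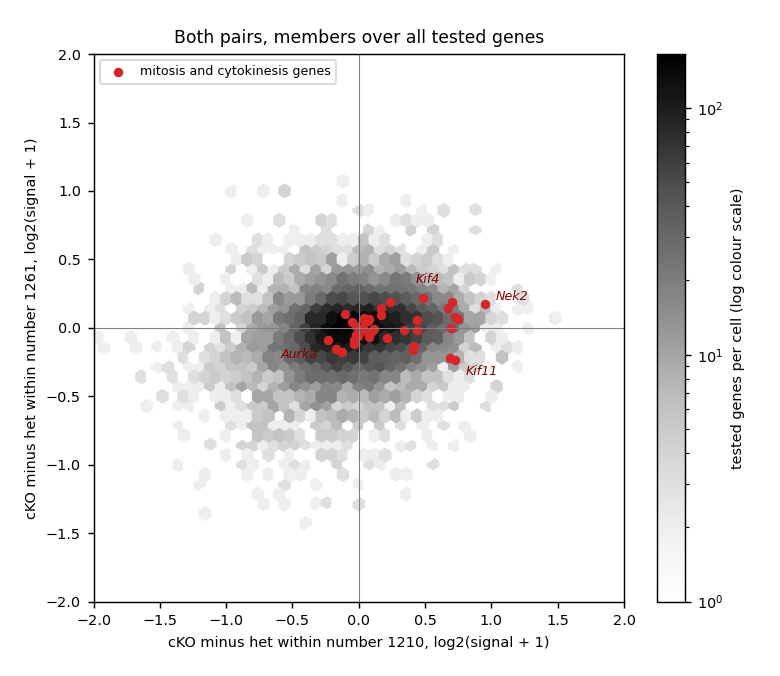
Difference between cKO and het within the first pair (horizontal) and within the second pair (vertical), both on the log2(signal + 1) scale; grey cells count the tested genes on a log colour scale, and red points are the 39 mitosis and cytokinesis genes. The red points form a flat band, from -0.23 to 0.95 along the first pair and from -0.24 to 0.22 along the second; 74 genes outside ±2 are not drawn.

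Differences given below as a pair of values are those within the first and then the second pair. The 8 genes of mitotic entry had a median difference of 0.11 (0.12 and 0.00). Cdk1, the kinase that starts mitosis, had a signal of 8059.8 in het_1210 and 7119 in het_1261, against 8511 in Ko_1210 and 6782 in KO_1261. Both het values lay between the cKO values, and the difference was 0.00 ± 0.25 (SE; 0.08 within the first pair and -0.07 within the second). Cyclin B2 (Ccnb2), a Cdk1 partner, read 4198 in het_1210 and 4096 in het_1261, against 4419 in Ko_1210 and 4286 in KO_1261. Both cKO arrays were the higher ones, though by only 0.07 and 0.07. Cyclin A2 (Ccna2), which acts from S phase into early mitosis, read 4484 in het_1210 and 4627 in het_1261, against 5992 in Ko_1210 and 4229 in KO_1261, with Ko_1210 alone above the other 3 arrays. Cks2, a small subunit that binds cyclin-dependent kinases, differed by 0.23 and 0.19. Its arrays read 19990.2 in het_1210 and 17694 in het_1261, against 23523 in Ko_1210 and 20163 in KO_1261, and both cKO values lay above both het values, though KO_1261 by little. An equally bright Cks2 probe set gave 0.06 and 0.08, and there KO_1261 (18407) was below het_1210 (20823).

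Regulators that act on Cdk1 or beside it mostly varied more between the pairs of arrays than between genotypes. Cdc25c, the phosphatase that activates Cdk1, differed by 0.17 and 0.14. Polo-like kinase 1 (Plk1), needed for spindle assembly and mitotic exit, read 2320.3 in het_1210 and 1429 in het_1261, against 2129 in Ko_1210 and 1261.3 in KO_1261. Both first-pair arrays were above both second-pair arrays, and within each pair the cKO array was the lower one (-0.15 ± 0.39; -0.12 within the first pair and -0.18 within the second). Aurora A (Aurka), the kinase of the spindle poles, read 1658 in het_1210 and 1133 in het_1261, against 1409 in Ko_1210 and 1065 in KO_1261 and had the same order, with -0.23 and -0.09 between genotypes. Nek2, a kinase that separates the centrosomes, had the highest mean difference of the 39, 0.56 ± 0.32 (95% interval -0.27 to 1.39), with 717 in het_1210 and 1204 in het_1261, against 1386 in Ko_1210 and 1359 in KO_1261. The difference rested on a low het_1210 value: it was 0.95 within the first pair and 0.17 within the second, and the blocked adjusted p in limma was 0.206. Another Nek2 probe set above the filter gave 0.47 and 0.06, and a further one 0.07 and -0.07.

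All 7 checkpoint and exit genes had mean differences at or above 0, and their median was 0.05. Bub1, a kinase that recruits checkpoint proteins to kinetochores, read 1541 in het_1210 and 2581 in het_1261, against 2595 in Ko_1210 and 2700.2 in KO_1261. Its other probe set read 159 and 436 on the het arrays and 526 and 459 on the cKO arrays, so het_1210 was low on both. The Bub1 difference was 0.41 ± 0.31 (0.75 within the first pair and 0.07 within the second). BubR1 (Bub1b), part of the complex that inhibits Cdc20, differed by 0.17 and 0.10, with signals of 1670.2 and 1875 on the het arrays and 1879 and 2004 on the cKO arrays. Another Bub1b probe set gave 0.29 and -0.15, with the groups overlapping. Mps1 (Ttk), the kinase at the top of the checkpoint, differed by 0.21 and -0.08 and Mad2 (Mad2l1), the Cdc20 inhibitor, by 0.06 and 0.05. Cdc20, the activator of the anaphase-promoting complex, read 14946 in het_1210 and 10312 in het_1261, against 15578 in Ko_1210 and 10077 in KO_1261. The second pair minus the first was -0.54 in het and -0.63 in cKO, while the genotypes differed by only 0.06 and -0.03. Ube2c, the ubiquitin-conjugating enzyme of that complex, differed by 0.03 and 0.00, and securin (Pttg1), its substrate, by -0.10 and 0.10. The other 2 tested probe sets of Pttg1 gave -0.44 and 0.33 and -1.08 and 0.01.

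The chromosomal passenger complex, which corrects faulty attachments and later moves to the midzone, had a median difference of 0.02 over its 4 subunits (0.01 and 0.03). Aurora B (Aurkb), its kinase, read 2043 in het_1210 and 2401 in het_1261, against 2709.6 in Ko_1210 and 2148 in KO_1261, a difference of 0.12 ± 0.25 with opposite signs in the pairs (0.41 and -0.16). The scaffold Incenp read 4927 in het_1210 and 5153 in het_1261, against 4853 in Ko_1210 and 5195 in KO_1261, with differences of -0.02 and 0.01. Survivin (Birc5) differed by 0.04 and 0.06 and borealin (Cdca8) by -0.05 and 0.04. For these 3 subunits the genotypes were within 0.10 of each other in both pairs, while the second-pair value minus the first-pair value was -0.38 in het and -0.36 in cKO for Birc5 and -0.57 in het and -0.48 in cKO for Cdca8.

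The 3 centromere genes had a median difference of 0.21 (0.44 and 0.05). Cenpa, the histone variant that marks the centromere, differed by 0.07 and 0.05. Cenpf, a large kinetochore protein of G2 and M phase, read 1372 in het_1210 and 2428 in het_1261, against 2264 in Ko_1210 and 2559 in KO_1261, where the other 3 arrays stood close together above het_1210. Its difference was 0.40 ± 0.34 (0.72 within the first pair and 0.08 within the second; blocked adjusted p in limma 0.415). Cenpe, the kinetochore motor that aligns chromosomes, read 543 in het_1210 and 1193 in het_1261, against 736 in Ko_1210 and 1182 in KO_1261. The second pair was above the first in both groups (1.13 in het and 0.68 in cKO), and cKO differed from het by 0.44 and -0.01.

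Among the spindle motors and microtubule-binding proteins, 4 had mean differences above 0 and 4 below, with a median of 0.01. Kif11, the motor that pushes the poles apart, gave the widest contrast between the pairs, 0.72 and -0.24, with signals of 1726 and 2640.5 on the het arrays and 2852 and 2240.4 on the cKO arrays. Het_1210 was the lowest Kif11 array and Ko_1210 the highest. Kif4, a chromosome-bound motor, differed by 0.48 and 0.22 and was the gene with the highest second-pair value. Kif2c, a depolymerase that frees wrong attachments, had the lowest mean difference of the 39, -0.16 ± 0.23 (-0.17 and -0.16), with signals of 4073 and 3449.5 on the het arrays and 3618 and 3097 on the cKO arrays. Kif22, which pushes chromosome arms outward, read 4665 in het_1210 and 2694 in het_1261, against 4552 in Ko_1210 and 2528 in KO_1261 and was lower in the second pair in both groups (-0.79 in het and -0.85 in cKO). The spindle factors Tpx2 (0.12 and -0.01), Nusap1 (-0.01 and -0.06) and Dlgap5 (-0.02 and -0.05) were within 0.12 of 0 in both pairs on the chosen probe sets. A dimmer Dlgap5 probe set read 184 and 207 on the het arrays and 120 and 114 on the cKO arrays. There both cKO arrays were below both het arrays (-0.62 and -0.86), unlike on the chosen one. Hmmr, a microtubule-binding protein of the poles, differed by 0.34 and -0.02.

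The 7 cytokinesis genes, with a median difference of 0.23 (0.44 and -0.02), held genes on both sides of 0. Prc1, which bundles the central spindle, read 1700.3 in het_1210 and 2671 in het_1261, against 2303 in Ko_1210 and 2778 in KO_1261 (0.44 and 0.06). Kif23, the motor of centralspindlin, read 1967 in het_1210 and 2780.2 in het_1261, against 3131 in Ko_1210 and 3076 in KO_1261. Both cKO arrays were above both het arrays, with a difference of 0.41 ± 0.26 (0.67 within the first pair and 0.15 within the second). Another Kif23 probe set gave 0.37 and -0.18, with the groups overlapping. Its partner Racgap1 read 1857 in het_1210 and 2014 in het_1261, against 1814 in Ko_1210 and 1855 in KO_1261, and there both cKO arrays were below both het arrays (-0.03 and -0.12). Another Racgap1 probe set gave 0.03 and -0.06. Ect2, the RhoA activator that centralspindlin recruits, read 1799.6 in het_1210 and 3609 in het_1261, against 2899 in Ko_1210 and 3103 in KO_1261. Its pairs went opposite ways (0.69 and -0.22), and het_1261 was the highest array. Anillin (Anln), which ties the contractile ring to actin, myosin and septins, read 2369 in het_1210 and 4472 in het_1261, against 3833 in Ko_1210 and 4476 in KO_1261. Only het_1210 stood apart, and the difference was 0.35 ± 0.36 (0.69 and 0.00). Kif20a, a motor that carries mitotic kinases to the central spindle, read 1688 in het_1210 and 1754 in het_1261, against 1677 in Ko_1210 and 1687 in KO_1261. Both cKO arrays were lower, by little (-0.01 and -0.06). Kif20b, a motor of late cytokinesis, differed by 0.10 and -0.02.

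Both chromosome proteins that serve as common proliferation markers lay above 0, at different sizes. Topoisomerase IIα (Top2a), which untangles chromosomes, read 6112 in het_1210 and 9399 in het_1261, against 9948 in Ko_1210 and 10714 in KO_1261. Both cKO arrays were above both het arrays, with a difference of 0.45 ± 0.30 (0.70 within the first pair and 0.19 within the second; 95% interval -0.32 to 1.21). Another Top2a probe set above the filter read 155 and 440 on the het arrays and 177 and 524 on the cKO arrays, with differences of 0.19 and 0.25. Ki-67 (Mki67), which coats mitotic chromosomes and is present in all cycling phases, read 5755 in het_1210 and 7180.4 in het_1261, against 5909.6 in Ko_1210 and 7535 in KO_1261. There the genotypes differed by only 0.04 and 0.07 (0.05 ± 0.26; 95% interval -0.62 to 0.73), and the second pair was higher in both groups.

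**Figure D3:**
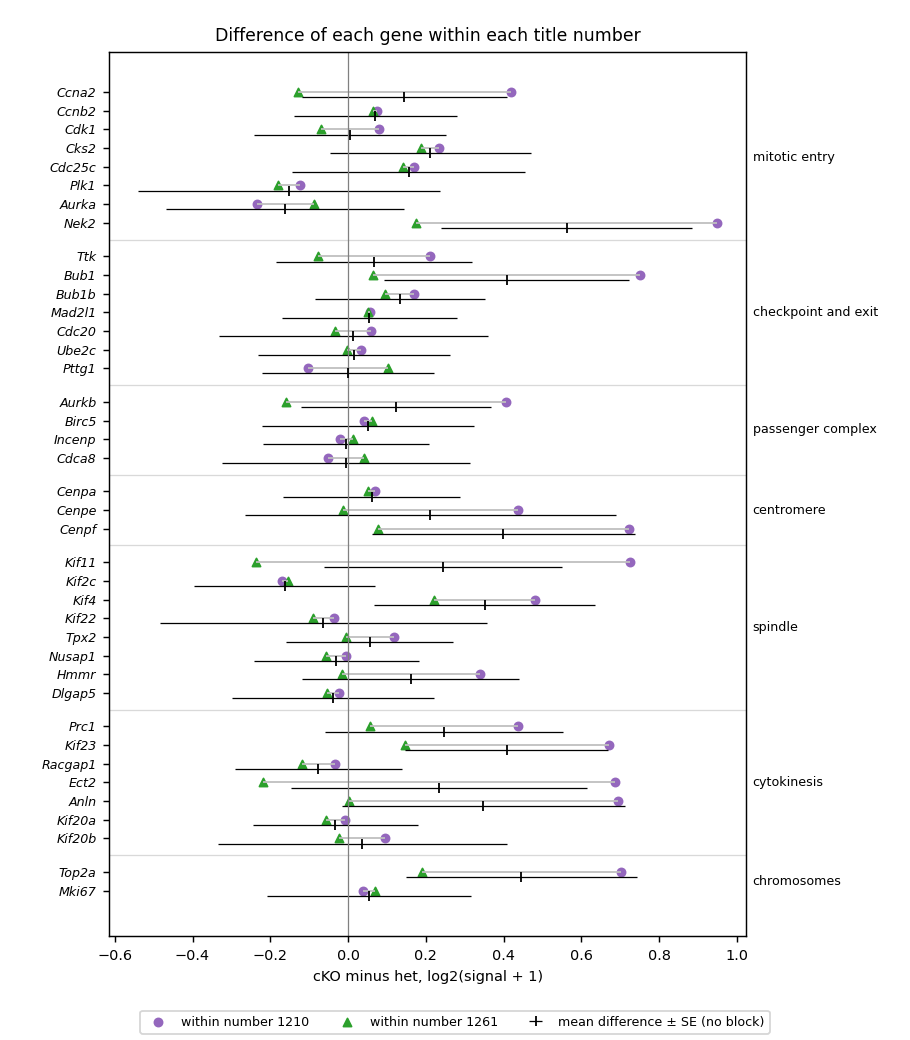
Difference between cKO and het for each gene, grouped by role, within the first pair (circles), within the second pair (triangles) and as the mean with its SE from limma without a block (tick and bar below). Triangles stay between -0.24 and 0.22, while circles reach 0.95 for Nek2 and exceed 0.5 for 8 genes.

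In the first pair the larger differences came with a low het_1210, a high Ko_1210 or both. Het_1210 was the lowest of the 4 arrays for 18 of the 39 genes (46.2%), against 30.2% of all tested genes and 34.3% of those with at least 500 on every array. These 18 were Nek2, Ttk, Bub1, Bub1b, Aurkb, Cenpe, Cenpf, Kif11, Kif4, Tpx2, Hmmr, Prc1, Kif23, Ect2, Anln, Kif20b, Top2a and Mki67. All 8 genes with a first-pair difference over 0.5 were among them. In 14 of the 18, het_1261 was also within 0.25 of both cKO arrays. All 39 genes met this limit for KO_1261, so only Ko_1210 could set the 14 apart, and no share over all genes was taken. Among the genes more than 0.25 from 0 in the first pair, Ko_1210 was the highest array for Kif11, Aurkb and Ccna2. It was also the highest, by little, for Nek2 and Kif23. For Ccna2 het_1210 was not the lowest. The 10 other tested probe sets of those 8 genes were all higher in Ko_1210 than in het_1210, 3 of them by more than 0.5. Without het_1210 the median difference of the 39 genes was 0.036 (0.017 over all tested genes) and 22 of 39 were above 0. Without Ko_1210 it was 0.044 (-0.092 over all), again with 22 above 0. Without het_1261 it was 0.098 (-0.11 over all) with 24 above 0, and without KO_1261 0.15 (0.048 over all) with 30. The level of many genes also differed between the pairs. Both second-pair arrays were above both first-pair arrays for 13 genes (33.3%; 25.4% of all), with Cenpe, Ect2 and Anln among them, and below both for 13 (33.3%; 41.5% of all), with Kif22, Plk1, Cdc20 and Cdca8 among them. The sign of the second pair minus the first was the same in het and cKO for 33 of 39 genes. The share over all tested genes was not counted, but these differences correlated at 0.755 between het and cKO over all tested probe sets. Of the 40 other tested probe sets of the genes, 33 had the sign of the chosen one for the second pair minus the first in het (82.5%; 74.3% over all tested genes), and 27 for cKO minus het (67.5%; 65.3%). Dimmer probe sets of Incenp (-0.62 and -0.06 on one, 1.30 and 0.33 on another), Kif2c (-0.66 and 0.30) and Hmmr (0.46 and -0.53) differed by more than the chosen ones in at least 1 pair. The 3' to 5' signal ratio of the Gapdh control was 0.871 and 0.914 in the first pair and 0.782 and 0.771 in the second, so it moved with the pairs as well; its part was not tested. For 6 genes (Cdc20, Cdc25c, Aurkb, Incenp, Kif2c and Kif22) the chosen probe set is of a type, ending in x_at, whose probes may also read other transcripts.

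**Figure D4:**
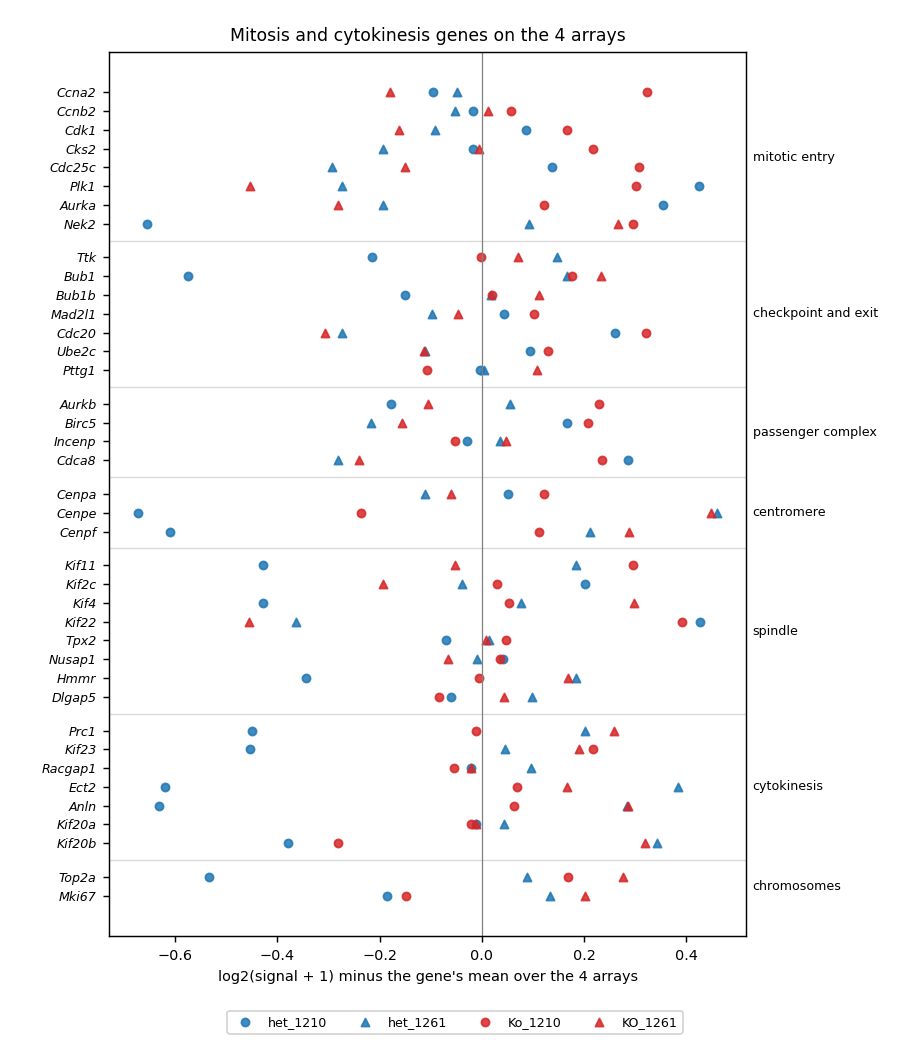
Signal of each gene on the 4 arrays as log2(signal + 1) minus the gene's own mean over the arrays; blue is het, red is cKO, circles are the first pair and triangles the second. For genes such as Nek2, Bub1, Cenpf, Ect2 and Anln the het_1210 circle stands alone on the left, while for Plk1, Cdc20, Cdca8 and Kif22 the circles of both groups lie to the right of the triangles.

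Of the other genes of the mitotic machinery few passed. In limma without a block 0 passed in each of the 10 further lists, and 0 had an unadjusted p under 0.05. Of 34 tested kinetochore, centromere and checkpoint genes 0 passed with the block either, 19 were above 0 and the median was 0.06 (0.07 and -0.04 within the pairs). Ndc80, the microtubule-binding kinetochore subunit, had the highest difference there, 0.43 ± 0.31 (0.69 and 0.18), and Pmf1 the lowest, -0.38 ± 0.65 (-0.31 and -0.45). Of 20 condensin, cohesin and chromatid separation genes 0 passed and 13 were above 0, with a median of 0.17 (0.28 and 0.01). Het_1210 was the lowest array for 15 of these 20, the highest share among the 10 further lists. The smallest share was that of the DNA replication genes, with 5 of 34, where 30.2% of all tested genes had het_1210 lowest. Ncapg2, a condensin II subunit, read 1562 in het_1210 and 3174 in het_1261, against 2642 in Ko_1210 and 3611 in KO_1261, and Ncaph, of condensin I, differed by -0.19 ± 0.23 (-0.04 and -0.34). The 17 genes of the anaphase-promoting complex had 12 below 0, a median of -0.05 (-0.16 and -0.07) and 0 calls in either fit, from Anapc2 at -0.25 ± 0.26 to Anapc1 at 0.27 ± 0.33. The 17 mitotic entry kinases and phosphatases had 12 above 0, a median of 0.15 (0.25 and 0.06) and 0 calls. Plk4, which starts centriole duplication, was the highest of them at 0.40 ± 0.29 (0.71 and 0.09), and Arpp19 the lowest at -0.14 ± 0.34. The 32 other spindle and midbody genes had a median of 0.01 and 0 calls, from Kif3b at -0.38 ± 0.38 to Ckap5 at 0.47 ± 0.56.

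The exceptions were cytoplasmic actins. Of 19 tested genes for the actomyosin and septins of the cleavage furrow, 2 fell in limma with the block and 0 rose. β-actin (Actb) read 37974 in het_1210 and 25093 in het_1261, against 20177 in Ko_1210 and 19786 in KO_1261, a difference of -0.91 and -0.34 (blocked adjusted p in limma 0.00745). γ-actin (Actg1) read 44873 in het_1210 and 32894 in het_1261, against 26519.9 in Ko_1210 and 19005 in KO_1261, a difference of -0.76 and -0.79 (blocked adjusted p in limma 0.000295). Both are also known SRF targets, both were lower in cKO within each pair, and neither passed without the block or with the block and no variance trend. The 3' to 5' ratio of the Actb control was 2.75 and 2.0 on the het arrays and 3.12 and 2.43 on the cKO arrays, and the fibroblast markers were lower in cKO as well; their part was not tested. The list median was -0.01 (0.06 and -0.09). Citron kinase (Cit), which acts at the midbody, had the highest difference, 0.58 ± 0.27 (0.34 and 0.82), and did not pass (blocked adjusted p in limma 0.235). Of 13 spindle orientation genes 0 passed, with a median of 0.06 (0.17 and -0.06), from Gnai2 at -0.14 ± 0.27 to Dlg1 at 0.39 ± 0.37.

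Upstream of the mitotic genes, 22 transcription factors and cofactors that control them had a median of 0.14 (0.28 and -0.02), 16 above 0 and 0 calls. The highest, E2f4, read only 78.0 and 54.4 on the het arrays and 82.6 and 107 on the cKO arrays, near the filter of 65.9, and the lowest was Lin37, a DREAM subunit, at -0.45 ± 0.39 (-0.68 and -0.21). The 34 DNA replication genes had a median of -0.01 (-0.05 and 0.02) and 0 calls, from Ccne2 at -0.40 ± 0.40 (-0.32 and -0.48) to Pola1 at 0.19 ± 0.32. Both second-pair arrays were below both first-pair arrays for 26 of the 34. Of 17 G1 cyclins, kinases and inhibitors 1 rose with the block, Gadd45b, a stress-induced gene that can restrain Cdk1, with 1884 in het_1210 and 4357 in het_1261, against 3748 in Ko_1210 and 6267 in KO_1261 (0.99 and 0.52; blocked adjusted p in limma 0.00547). Het_1261 was above Ko_1210 there, and Gadd45b did not pass without the block or with the block and no variance trend. Cdkn2b, an inhibitor of Cdk4 and Cdk6, had the lowest difference, -1.03 ± 0.42 (-1.35 and -0.71), read from signals of 188 and 187 on the het arrays and 73.1 and 114 on the cKO arrays, and did not pass.

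**Figure D5:**
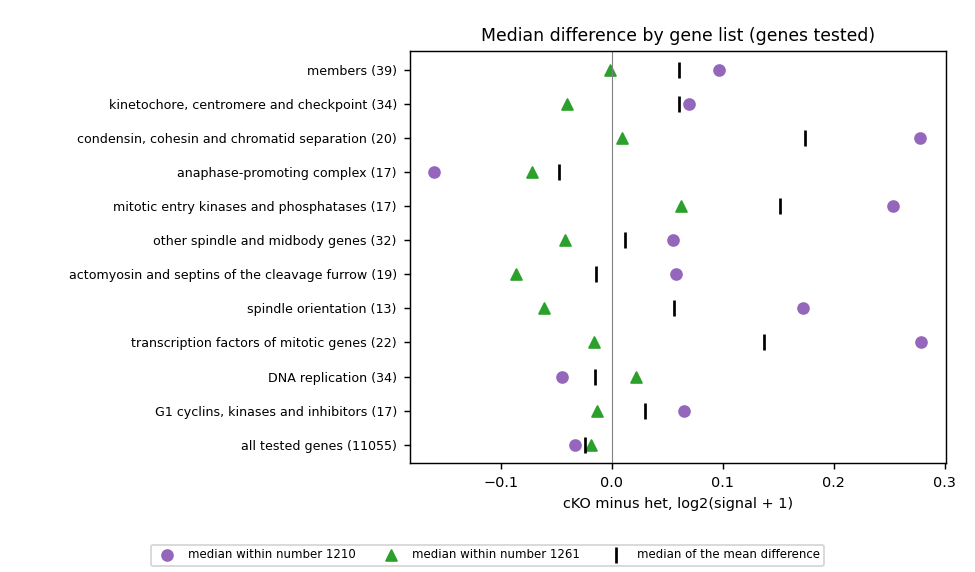
Median difference between cKO and het for the mitosis and cytokinesis genes (members), 10 further cell cycle lists and all tested genes, with the number of genes tested in brackets; circles are medians within the first pair, triangles within the second and ticks the median of the mean difference. The first-pair medians range from -0.16 for the anaphase-promoting complex to 0.28, while the second-pair medians stay between -0.09 and 0.06.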

How the data were processed

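The RNA of the sorted cells was isolated with Trizol and labelled for 3' arrays, per the labels' protocols. The values the authors deposited are MAS5 signals, an intensity of each probe set on each array on a linear scale, per the submitters' processing notes; the sources used here give no version or genome build. On every array the mean, with 2% of probe sets trimmed at each end, was about 499.8. Precision is limited by having 2 arrays in a group. Of 45101 probe sets, 64 controls were left out. Symbols came from the platform annotation, updated by Entrez identifier: 34945 probe sets had 1 symbol, 932 several and 9160 none. Signals were used as log2(signal + 1). A probe set was tested if its mean log2 signal exceeded that of the median probe set (a signal of 65.9), which kept 22518. The groups were compared by limma 3.58.1 under R 4.3.3, by its moderated two-sided test with a variance trend. P-values were adjusted by Benjamini and Hochberg's method across all of these, with a threshold of 0.05; ± gives the SE of the fit without a block. The same fit with the title number as a block stands beside it, because spike-ins differed between the numbers; its SE comes largely from the variance of other probe sets.

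The genes and lists were chosen with earlier results of these data known. All 39 were to be named. Values on each array were to be given for genes that passed, whose groups did not overlap or that had the 5 highest or 5 lowest differences, and for Mki67, Top2a, Cdk1, Aurkb, Plk1, Anln and Ect2; some others were added. Of each further list the genes that passed and its extremes were named. Alternatives were scaling, pseudocount, filter, choice of probe set, block, variance model and leaving out each array. Promoter windows are from RefSeq (GRCm38.p6). Protein sequences were not used here.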

Additional observations from a re-analysis of the deposited data

How the results depend on the processing

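No mitosis or cytokinesis gene passed under any of the 14 alternatives that were run; the smallest adjusted p was 0.0874, with the replicate block and median centring together, a setting chosen after seeing the data. Over all tested genes the count of calls was 96 with the replicate block, 50 with the block and a robust prior, 52 with the block and median centring, 0 with the block and no variance trend, and 0 to 2 with 1 array left out. The deviations of same-numbered arrays correlated at 0.755 over the tested probe sets; with 2 pairs and no label, this does not show that the numbers pair animals. The median difference of the 39 genes was 0.18 with median centring, with or without the block, and 0.036 to 0.15 with 1 array left out. Both cKO arrays were above both het arrays for 12 genes with median centring, with or without the block (18.1% of all tested genes). The count was 3 with the mean of all probe sets of a gene (7.63% of all). It was 12 to 20 with 1 array left out, where 1 array faces 2 (23.5% to 32.8% of all). Both were below for 0 with median centring, with or without the block (4.0% of all), and for 5 with quantile normalization (7.78% of all). With 1 array left out, 5 to 11 were below (19.7% to 45.9% of all). Uncalled differences changed sign for 7 genes with median centring, 2 with quantile normalization, 9 with the mean of probe sets and 9 to 15 with 1 array left out. Leaving out an array with the block kept no residual degrees of freedom and was not run.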
